A study of Mus musculus with 18 samples.

Results

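Histone genes were followed across the 6 treatments as the probe sets for which every annotated symbol names a histone, that is, begins with H1f, H2a, H2b, H3c, H3f, H4c, H4f, H4bc, Hist or Macroh2a and has no hyphen. A probe set is a group of short array oligonucleotides that together give 1 intensity for a transcript. The rule took 59 probe sets that list 82 of the 19324 gene symbols annotated on the array. Replication-dependent (canonical) histones accounted for 32 probe sets with 53 symbols, histone variants (H2ax, H2az, H3f3 and Macroh2a) for 12 probe sets with 8 symbols, and the remaining 15 probe sets list H1f10, H2aj and germline histones. Only 15 of the 32 canonical probe sets list a single gene, since the coding sequences of a canonical family are nearly alike; 7 of the 32 also list H4f16 or H4bc24. H1f0, a variant linker histone named by the rule, was not analysed here.

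Canonical histones package newly replicated DNA. Their genes lie in clusters, carry no introns, are transcribed mainly in S phase, and their mRNAs end in a stem-loop bound by Slbp rather than in a poly(A) tail; blocking DNA replication destabilises these mRNAs, and blocking protein synthesis is known to stabilise them. Variant histones are made throughout the cell cycle from genes outside or at the edge of the clusters, mostly as ordinary polyadenylated mRNAs, and replace the canonical proteins at particular places in chromatin.

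The arrays measured nascent RNA from NIH-3T3, a mouse fibroblast line, purified through 4-thiouridine (4sU) that was in the medium at 500 µM during the final 30 min. Mock, IFNα and IFNγ cultures received DMSO, and the CHX, IFNα+CHX and IFNγ+CHX cultures received cycloheximide (CHX), an inhibitor of translation, beginning 15 min before the 1 h treatment and so for 75 min in total. IFNα or IFNγ was given at 100 U/ml, and mock and CHX cultures received no IFN. Each treatment had 3 biological replicates, each on its own Affymetrix MG 430 2.0 array, and nothing beyond that name states how separate the cultures were. NIH-3T3 is a single established line, so the spread between arrays does not cover differences between lines.

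The deposited intensity is linear; the methods state gc-RMA, the submitters' notes name Affymetrix Expression Console, and which of them made these values is not settled. A probe set was kept for testing where its highest value on any array was at least 8.5, which left 27773 of 45037. Changes are log2 changes of intensity ± the standard error (SE) from limma, and a call needed both a Benjamini-Hochberg adjusted p below 0.01 and a change reaching 2-fold. Array medians lay between 9.6 and 10.8 and arrays of the same treatment correlated at r = 0.9594 to 0.9953. All 10 fibroblast markers were kept, their summed intensity lying between 46042 and 65067, and the 3 endothelial markers were under the filter on every array. The 5 leukocyte markers measured summed to 73.7 to 133.5 without CHX and 167.7 to 306.3 with it; Ptprc, Itgam and Cd3e were under the filter on every array, and Cd68 gave most of the sum. Epithelial markers summed to 29.6 to 52.8. The part of these markers in the changes with CHX was not tested.

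The stretches before the starts of canonical genes are shown for 1 gene of each family, with short motifs marked. They are read from RefSeq windows on GRCm38.p6, in which a window holds 250 bases before the annotated start and 50 after it, and 75 of the 82 genes had a window. The 150 bases before the start are given 5′ to 3′ on the gene's strand, with capitals marking the CCAAT box, the TATA motif TATAAA, the octamer ATTTGCAT or the H1 box AAACACA on either strand. H1f2 lies on the plus strand (chr13:23738657-23738806), H2aw on the plus strand (chr11:58954535-58954684), H2bc18 on the plus strand (chr3:96269550-96269699), H3c4 on the plus strand (chr13:23575613-23575762) and H4c1 on the minus strand (chr13:23761250-23761399).
H1f2: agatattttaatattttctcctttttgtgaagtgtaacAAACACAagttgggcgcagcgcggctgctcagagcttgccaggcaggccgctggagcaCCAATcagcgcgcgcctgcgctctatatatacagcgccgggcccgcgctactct
H2aw: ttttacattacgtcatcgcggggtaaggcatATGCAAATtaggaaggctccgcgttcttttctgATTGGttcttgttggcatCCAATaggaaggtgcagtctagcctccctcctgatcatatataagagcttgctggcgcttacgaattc
H2bc18: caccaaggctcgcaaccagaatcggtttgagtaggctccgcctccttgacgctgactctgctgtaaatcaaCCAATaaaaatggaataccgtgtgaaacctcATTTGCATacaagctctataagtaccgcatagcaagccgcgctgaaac
H3c4: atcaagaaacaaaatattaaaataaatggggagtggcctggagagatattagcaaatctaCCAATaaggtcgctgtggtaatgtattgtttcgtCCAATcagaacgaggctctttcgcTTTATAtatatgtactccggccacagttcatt
H4c1: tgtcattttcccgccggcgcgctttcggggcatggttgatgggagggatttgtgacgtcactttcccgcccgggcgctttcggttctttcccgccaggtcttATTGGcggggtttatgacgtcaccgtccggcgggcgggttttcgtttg

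The same stretch is shown for a variant that did not change with CHX by the threshold, H2az1 (plus strand, chr3:137864337-137864486), and for a variant that rose, H3f3b (minus strand, chr11:116024505-116024654).
H2az1: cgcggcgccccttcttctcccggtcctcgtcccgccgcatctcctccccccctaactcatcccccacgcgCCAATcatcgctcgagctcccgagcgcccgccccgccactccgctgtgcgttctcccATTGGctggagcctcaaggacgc
H3f3b: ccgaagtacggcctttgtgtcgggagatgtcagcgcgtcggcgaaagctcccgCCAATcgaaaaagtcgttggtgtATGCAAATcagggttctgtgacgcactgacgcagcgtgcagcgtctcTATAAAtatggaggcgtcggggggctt

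Among the 51 canonical genes proper, 46 had a window, of which 39 lie on chromosome 13, 6 on chromosome 3 and 1 on chromosome 11. CCAAT stood on either strand in 38 of the 46 windows (82.6%) against 37.4% of all 32851 promoter windows, and in 5 of the 6 windows of variant genes. TATAAA stood in 24 (52.2%) against 13.6% of all windows and in 1 of the 6 variant windows, that of H3f3b. The octamer was found in 8 canonical windows, 5 of 13 from H2A genes and 3 of 10 from H2B genes, against 1.74% of all windows. AAACACA was in both H1 windows and in 4 canonical windows in all, against 7.18% of all windows. TTTCGCGC, an E2F-type motif, was in 7 windows (15.2%), 4 of H2A and 3 of H2B genes, against 0.323%. H4 windows differed from the other families, with CCAAT in 3 of 11 and TATAAA in 8 of 11. In 6 cases an H2A and an H2B gene are transcribed away from each other and their windows overlap, so that they share motifs. A motif found is a description of letters in the window, and its part in the changes with CHX was not tested.

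CHX raised canonical histones in newly transcribed RNA. In CHX against mock 22 of the 28 canonical probe sets kept rose and none fell, whereas 698 of all probe sets tested (2.51%) were called higher. The median log2 change of the 28 was 4.39, against 0.04 over all probe sets. Of the 10 variant probe sets kept, 2 rose, H2ax and H3f3b, and the median was 0.20. None of the 6 other histone probe sets was called. Because 8 of the 28 canonical probe sets passed the filter only through arrays with CHX, the 20 that passed on the arrays without CHX were also counted, and 17 of these rose. For none of the 6 canonical probe sets without a call was the change negative. With a constant of 16 added before the logarithm the canonical median was 2.93, since many mock values are as low as the array median. Detection calls were not used here, so a low mock value may be background and the fold changes depend on it.

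**Figure D1:**
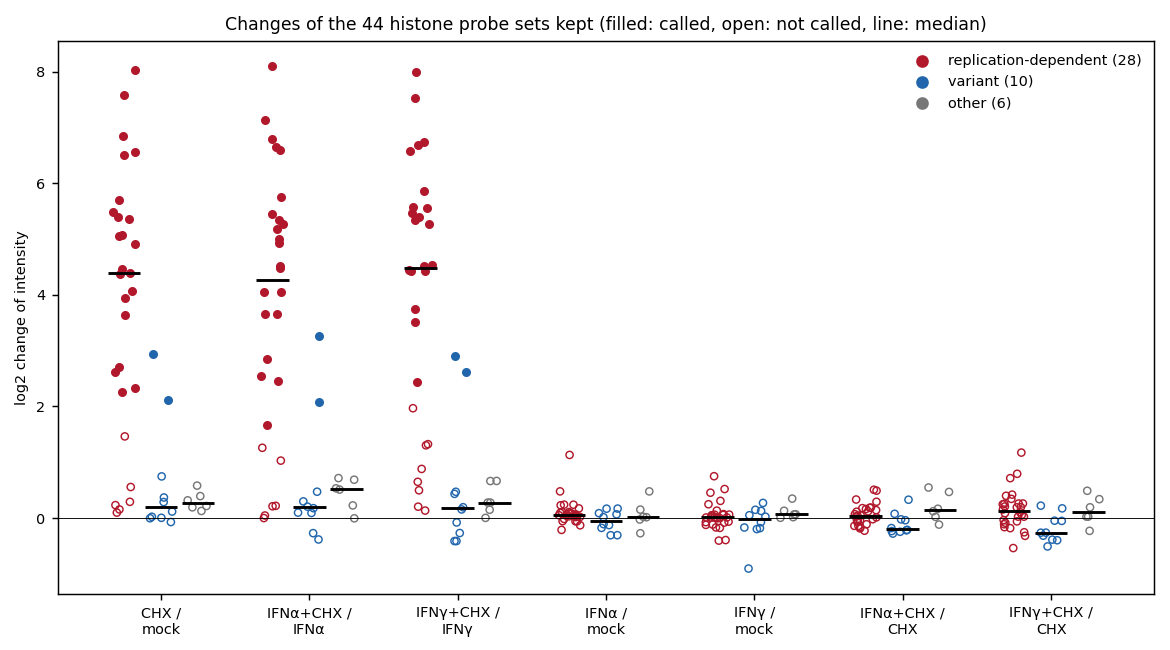
Log2 change of intensity (vertical axis) of the 44 histone probe sets kept in 7 comparisons (horizontal axis), for canonical, variant and other histones; filled points were called and black lines are class medians. In the 3 comparisons with CHX the canonical median lies between 4.27 and 4.49 and the variant median between 0.17 and 0.20, while no point is called in the 4 comparisons of IFN.

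Of the 3 canonical linker histone probe sets kept, 2 rose with CHX, both of H1f2. H1f2 (1436994_a_at) measured 47.2, 43.9 and 39.9 in mock, 49.3, 43.2 and 41.3 with IFNα and 67.9, 60.0 and 38.5 with IFNγ. It measured 7052.6, 5036.4 and 3554.2 with CHX, 7473.5, 4199.9 and 3850.6 with IFNα+CHX and 4759.6, 7564.8 and 5393.9 with IFNγ+CHX. The lowest array with CHX was therefore far above the highest array without it. The change was 6.85 ± 0.29 in CHX against mock (115-fold, adjusted p = 3.06e-09). A second H1f2 probe set (1416101_a_at) ranged from 48.7 to 103.4 (median 82.9) without CHX and from 5733.9 to 9332.9 (median 8099.2) with it, a change of 6.50 ± 0.24. A further one (1438204_at) stayed between 2.8 and 7.6 on all 18 arrays and was not kept, so the probe sets of H1f2 disagree. H1f4, another linker histone of S phase, was at 6.5 to 9.1 on all 18 arrays with a change of 0.15 ± 0.09 and was not called.

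Of the 5 canonical H2A probe sets kept, 4 rose, with a median of 2.61. H2aw (1435866_s_at) lies apart from the large clusters. It measured 18.4, 16.1 and 15.9 in mock, 19.0, 25.2 and 16.2 with IFNα and 26.6, 22.7 and 23.0 with IFNγ. With CHX it measured 969.3, 933.9 and 733.7, with IFNα+CHX 1358.2, 1155.0 and 777.2 and with IFNγ+CHX 805.3, 1178.0 and 840.2. Arrays with and without CHX did not overlap, and the change was 5.70 ± 0.21 (52.1-fold, adjusted p = 1.1e-09). Its second probe set (1455712_at) changed by 3.95 ± 0.57.

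The H2A probe set with the highest intensity before CHX, 1438009_at, lists 10 genes (H2ac23, H2ac13, H2ac4, H2ac24, H2ac22, H2ac12, H2ac11, H2ac8, H2ac7 and H2ac6). It measured 626.6, 290.1 and 540.5 in mock, 1723.6, 802.3 and 745.7 with IFNα and 1323.3, 508.5 and 694.1 with IFNγ. With CHX it measured 2637.8, 2790.9 and 3044.7, with IFNα+CHX 3395.2, 3736.1 and 2589.4 and with IFNγ+CHX 2047.6, 2498.2 and 1432.0. It rose by 2.61 ± 0.39 over mock, and the first IFNα array (1723.6) stood above the lowest array with CHX (1432.0). H2ac19 with H2ac18 (1438815_at) went from 11.2 to 16.4 without CHX to 37.0 to 125.1 with it, a change of 2.26 ± 0.30. H2ac19 alone (1418367_x_at) stayed at 7.2 to 14.1.

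Of the 9 canonical H2B probe sets kept, 8 rose, with a median of 5.36. Only 6 of the 9 passed the filter on the arrays without CHX. H2bc21 (1447854_s_at) measured 9.4 to 10.2 on the 3 mock arrays, 17.1, 15.3 and 9.9 with IFNα and 11.2, 15.9 and 9.0 with IFNγ. It measured 2206.8, 1848.7 and 1665.7 with CHX, 2220.8, 1816.0 and 1775.3 with IFNα+CHX and 2087.9, 2374.4 and 2055.5 with IFNγ+CHX. Arrays with and without CHX did not overlap, with a change of 7.59 ± 0.21 (192-fold, adjusted p = 4.72e-11). The values without CHX lie near the array median and may be background, on which the fold depends. A second H2bc21 probe set (1455095_at) was also called. It measured 6.1 to 10.9 without CHX and 220.1 to 499.9 with it, so the size of the rise differs between probe sets. The probe set of H2bc8, H2bc6 and H2bc4 (1418072_at) went from a median of 12.5 (9.9 to 18.7) to 3595.9 (2779.7 to 4597.0), with the largest change of any canonical probe set, 8.03 ± 0.26 (262-fold), again from values near the array median. Another for the same genes (1440330_at) reached 21.0 on a single array, was at most 7.0 on the others and was not called. A further one (1445565_at) measured 8.7 to 11.6 without CHX and 29.7 to 152.5 with it, and was called. H2bc22 (5.49 ± 0.13) and H2bc18 (3.64 ± 0.27), each listed alone, also rose. However, H2bc22 was at 5.2 to 6.6 without CHX and passed the filter only through arrays with CHX.

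Of 8 canonical H3 probe sets 6 rose, with a median of 4.39. Only 5 of the 8 passed the filter on the arrays without CHX. The probe sets without a call were among these 5, and the median is over all 8. H3c4 (1453573_at) measured 6.8, 23.9 and 22.9 in mock, 7.5, 20.2 and 15.8 with IFNα and 14.7, 7.0 and 15.6 with IFNγ. It measured 236.2, 713.0 and 599.6 with CHX, 226.0, 551.8 and 551.0 with IFNα+CHX and 242.4, 916.0 and 479.7 with IFNγ+CHX. Replicate arrays of one treatment differed by more than 3-fold in mock, and the groups still did not overlap, with a change of 4.91 ± 0.64 (30.1-fold, adjusted p = 0.000103). H3c7 (4.38 ± 0.49) and H3c11 (4.40 ± 0.35) moved by similar amounts. However, H3c11 was at 5.8 to 6.6 without CHX and passed the filter only through arrays with CHX. The probe set of 12 H3 genes that was not called (1427864_at) had 16.5 to 65.2 with CHX and 13.6 to 16.2 without it. H3c10 with H3c2 (1427863_at) was at 18.7 to 23.2 without CHX and 22.0 to 45.7 with it and was not called.

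No H4 probe set lists a single gene. The one with the largest change (1422948_s_at) lists 13 genes, among them H4c1, H4c2 and H4c17. It measured 10.7, 6.3 and 13.4 in mock, 11.9, 11.1 and 9.8 with IFNα and 9.1, 6.6 and 10.6 with IFNγ. It measured 164.8, 352.3 and 167.0 with CHX, 296.3, 343.5 and 140.7 with IFNα+CHX and 206.8, 194.1 and 165.8 with IFNγ+CHX. Arrays with CHX were all higher, by 4.46 ± 0.36 (22.1-fold, adjusted p = 2.05e-06). A second probe set of the same 13 genes (1424854_at) rose by 4.06 ± 0.40, and another (1431658_at), at 5.2 to 5.5 without CHX and 5.5 to 16.5 with it, was not called. The remaining H4 probe sets were not kept. Of the 22 canonical probe sets called over mock, 18 were called under every setting tried and with each array left out; 1422155_at, which lists 8 H3 genes, was the least stable, called in 7 of 25 fits.

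**Figure D2:**
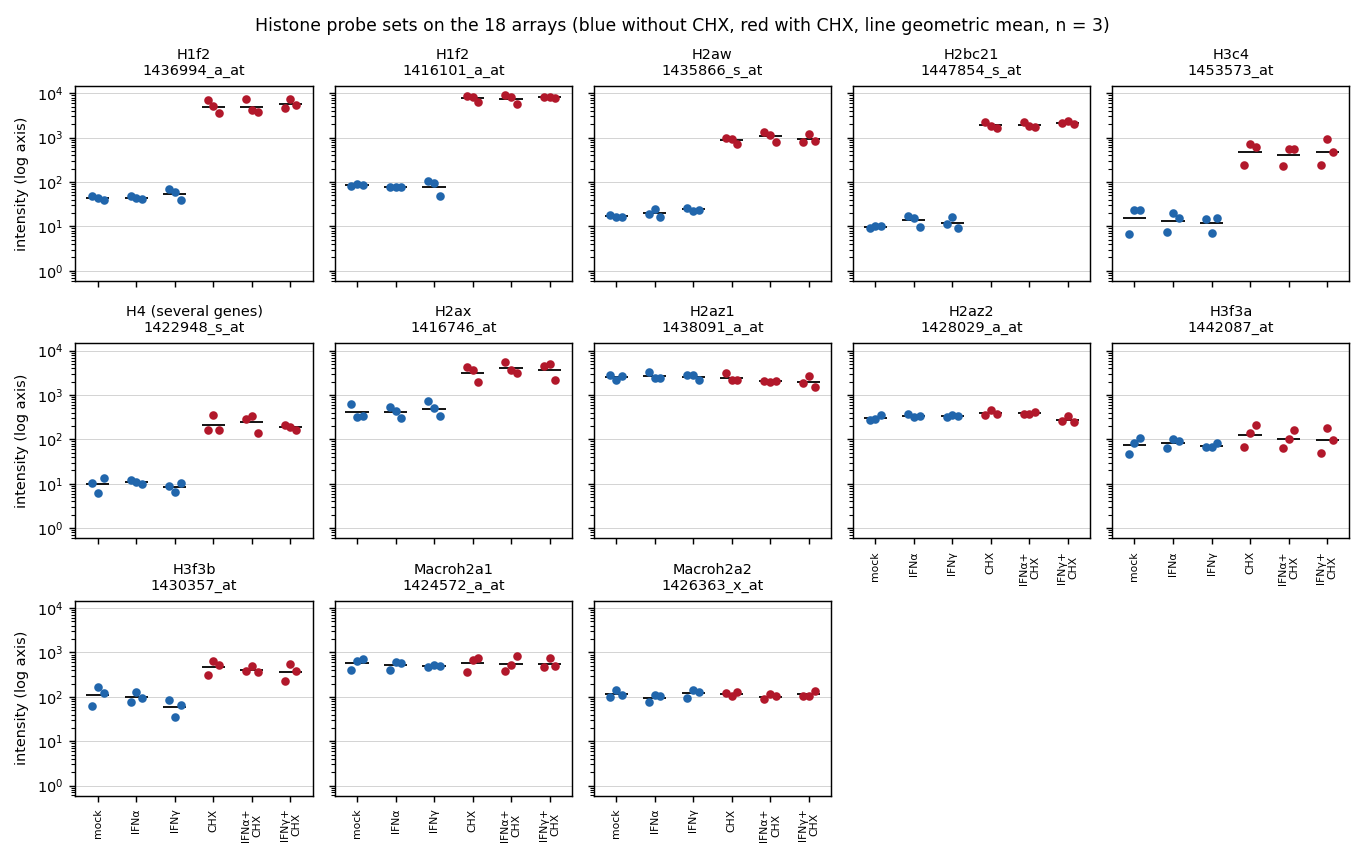
Intensity on a log axis (vertical) of 13 histone probe sets on each of the 18 arrays, grouped by treatment (horizontal); blue points are arrays without CHX, red points arrays with CHX, and the black line is the geometric mean of 3. In the first 6 panels, of canonical histones, every red point is above every blue point, and among the 7 panels of variants this holds for H2ax and H3f3b. The canonical panels show the probe set with the largest change or the highest mean in each family, so that choice favours their separation.

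H2ax, whose phosphorylation marks DNA breaks, has both a canonical-type stem-loop mRNA and a polyadenylated one. H2ax (1416746_at) measured 619.9, 328.3 and 339.9 in mock, 526.7, 442.3 and 306.8 with IFNα and 727.4, 504.9 and 331.0 with IFNγ. It measured 4357.8, 3643.5 and 1990.5 with CHX, 5584.2, 3642.4 and 3076.5 with IFNα+CHX and 4402.8, 5133.3 and 2219.1 with IFNγ+CHX. Groups did not overlap, and the change was 2.95 ± 0.41 (7.70-fold, adjusted p = 0.000165).

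H3f3b encodes the variant H3.3, as does H3f3a. H3f3b (1430357_at) measured 63.4, 166.8 and 125.1 in mock, 76.0, 129.5 and 93.1 with IFNα and 86.4, 36.1 and 64.6 with IFNγ. It measured 317.5, 634.8 and 533.3 with CHX, 387.4, 498.5 and 358.6 with IFNα+CHX and 229.5, 539.2 and 379.9 with IFNγ+CHX. The change was 2.12 ± 0.42 (4.33-fold, adjusted p = 0.00252); without the first mock array, or without the second or the third CHX array, it was not called, and with an array left out it was at its lowest 1.72 (adjusted p = 0.0136). H3f3a (1442087_at) measured 47.2 to 110.5 without CHX and 50.4 to 211.7 with it, and its change of 0.75 ± 0.50 was not called.

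Probe sets that list H3f3a or H3f3b together with pseudogenes fall outside the rule, and they did not move alike. One (1420376_a_at) measured 7395.8 to 8863.0 without CHX and 17236.9 to 19501.4 with it, a change of 1.24 ± 0.08 (adjusted p = 2.24e-07), and 1455725_a_at rose by 1.17 ± 0.12. Against this, 1423262_a_at (-0.19 ± 0.12), 1423263_at (-0.26 ± 0.15) and 1434127_a_at (0.18 ± 0.16) were not called.

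H2A.Z marks promoters and is encoded by H2az1 and H2az2. H2az1 (1438091_a_at) measured 2841.7, 2226.7 and 2643.6 in mock, 3257.6, 2476.1 and 2381.2 with IFNα and 2833.0, 2828.8 and 2195.4 with IFNγ. It measured 3174.7, 2131.0 and 2130.2 with CHX, 2044.5, 2009.9 and 2103.2 with IFNα+CHX and 1883.5, 2630.9 and 1506.3 with IFNγ+CHX. The arrays overlapped, and the change was -0.07 ± 0.21, with a 95% interval from -0.52 to 0.37. H2az2 (1428029_a_at) measured 274.6 to 379.5 (median 333.9) without CHX and 247.1 to 461.3 (median 369.7) with it, a change of 0.37 ± 0.14 that was not called. A probe set of H2az1 with the pseudogene Gm8203 (1416415_a_at), outside the rule, had changes of -0.41 ± 0.11 over mock and -0.70 ± 0.11 with IFNγ, the second at an adjusted p of 0.000326 but under 2-fold.

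MacroH2A variants, which carry a large extra domain and are enriched on the inactive X chromosome, overlapped between arrays with and without CHX. Macroh2a1 (1424572_a_at) measured 394.9 to 712.5 (median 512.8) without CHX and 371.6 to 821.5 (median 532.4) with it, a change of 0.00 ± 0.32. Macroh2a2 (1426363_x_at) measured 76.2 to 143.5 (median 107.7) and 88.6 to 134.3 (median 106.9), a change of 0.02 ± 0.19. The 2 probe sets of Macroh2a3 alone stayed at 3.8 to 7.1 and were not kept.

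H2aj, a replication-independent H2A, is represented by 3 probe sets with 16.8 to 493.5 without CHX and 31.8 to 544.9 with it, none of them called. The largest of their changes was 0.58 ± 0.20 (1424771_at, adjusted p = 0.0505). The testis linker histone H1f6 was at 6.1 to 6.4 without CHX and 6.5 to 13.3 with it; in the IFNα background its change of 0.72 ± 0.16 had an adjusted p of 0.00486 and stayed under 2-fold. The 9 germline probe sets that were not kept lay between 3.5 and 7.1 on all arrays.

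**Figure D3:**
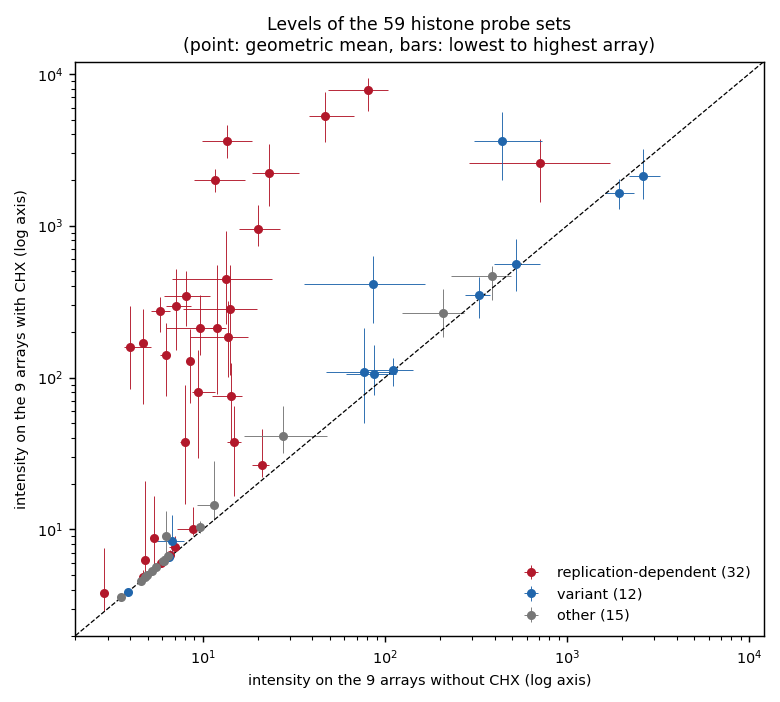
Intensity of the 59 histone probe sets on the 9 arrays without CHX (horizontal, log axis) and on the 9 arrays with CHX (vertical, log axis); points are geometric means, bars run from the lowest to the highest array and the dashed line marks equal levels. Canonical probe sets lie mostly above the line and start near 10, while most variants lie on it.

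All 9 arrays with CHX were above all 9 without it in 22 of the 28 canonical probe sets kept. The same held for 2 of the 10 variants kept and 1 of the 6 others kept, H1f6, against 4.13% of all probe sets tested. Of the 28 canonical probe sets, 8 passed the filter only through arrays with CHX. Canonical intensities without CHX were low. The 28 kept spanned 3.7 to 1723.6 there, and the 20 called in each of the 3 backgrounds did not exceed 103.4. With CHX these 20 spanned 29.7 to 9332.9. Labelling followed the protocol for mRNA, and how well it caught canonical mRNAs, which lack a poly(A) tail, was not tested. A low intensity without CHX therefore need not mean little RNA. Levels of different probe sets also carry the brightness of their own oligonucleotides and are not comparable as amounts.

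Each IFN background gave the canonical rise again, and the 3 comparisons share no arrays. Arrays of the same replicate number still correlated in their deviations from the treatment means (median r = 0.474), so the comparisons are not fully independent repeats. In IFNα+CHX against IFNα 22 of 28 canonical and 2 of 10 variant probe sets rose (background 3.57%), with class medians of 4.27 and 0.19. In IFNγ+CHX against IFNγ 20 of 28 and 2 of 10 rose (background 2.85%), with medians of 4.49 and 0.17. Averaged over the 3 backgrounds, the counts were 23 and 2 (background 3.89%), with medians of 4.39 and 0.18. Of the 20 canonical probe sets that passed the filter on the arrays without CHX, 17 rose in the IFNα background and 16 in the IFNγ background. In the average 18 of these 20 rose. Over all probe sets the medians of these 3 comparisons were -0.01, 0.03 and 0.03. H2ax and H3f3b were the 2 variants in each case. H2ax changed by 3.26 ± 0.41 with IFNα and 2.90 ± 0.41 with IFNγ, and H3f3b by 2.08 ± 0.42 and 2.62 ± 0.42. When only the 6 arrays of the comparison entered the fit, H2ax (adjusted p = 0.0123) and H3f3b (adjusted p = 0.0176) were not called in the IFNγ background.

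The 2 canonical probe sets called over mock but not over IFNγ were the H2A probe set 1438009_at (1.32 ± 0.39, adjusted p = 0.0229) and 1422155_at, which lists 8 H3 genes (1.97 ± 0.56, adjusted p = 0.0195). They were called there in 2 and 3 of 25 fits, the fit with the replicate number as a block among them. The difference between backgrounds was tested as an interaction, and neither probe set was called in it. 1427864_at was called only in the average of the 3 backgrounds (1.34 ± 0.27). The largest changes varied little between backgrounds: H2bc21 (1447854_s_at) gave 7.59, 7.13 and 7.53 and H1f2 (1436994_a_at) 6.85, 6.80 and 6.75.

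Replicates differed in size within the canonical class. The median log2 change of the canonical probe sets between arrays of the same number was 4.21, 4.87 and 3.75 in CHX against mock (SD 0.57), 4.78, 4.75 and 3.78 with IFNα (SD 0.57) and 4.42, 4.86 and 4.44 with IFNγ (SD 0.25). In IFNα+CHX the third array was the lowest of its treatment in 18 of the 20 probe sets called in each background, in CHX in 14 and in IFNγ+CHX in 10. Variants gave 0.32, 0.14 and 0.15 in CHX against mock (SD 0.10).

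IFN on its own left the histones without a call. In IFNα against mock no histone probe set of the 44 was called in either direction, against 0.500% of all probe sets, and 3 had an unadjusted p under 0.05 in limma. In IFNγ against mock none was called (background 1.63%) and 2 had such a p. With CHX on both sides, none was called for IFNα (background 0.893%, 1 with such a p) or IFNγ (background 3.18%, 6 with such a p). The same was found under the other settings and with each array left out. With background rates this low, the lack of calls is not particular to histones. IFNα and IFNγ share the mock arrays, and with CHX the CHX arrays, so the comparisons are not independent.

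The H2A probe set 1438009_at had the largest change with IFNα, 1.13 ± 0.39 (adjusted p = 0.452), and with IFNγ it changed by 0.75 ± 0.39. H3f3b (1430357_at) had the lowest with IFNγ, -0.91 ± 0.42 (adjusted p = 0.451). H2az2 (1428029_a_at) was at -0.51 ± 0.14 in IFNγ+CHX against CHX (adjusted p = 0.0401), under 2-fold. Canonical medians in the 4 comparisons were 0.05, 0.01, 0.03 and 0.13, and variant medians -0.05, -0.03, -0.20 and -0.26, in the same order of IFNα, IFNγ, IFNα with CHX and IFNγ with CHX. Over all probe sets these medians lay between -0.04 and 0.01.

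Whether CHX altered the IFN response was tested as an interaction, and no histone probe set was called for IFNα (background 0.187%) or IFNγ (background 0.238%); 1 and 2 had an unadjusted p under 0.05. The values of 1438009_at were -0.95 ± 0.55 for IFNα and -1.29 ± 0.55 (adjusted p = 0.574) for IFNγ. That of H2az2 for IFNγ was -0.64 ± 0.20 (adjusted p = 0.302). With 3 arrays a treatment and a 2-fold minimum, smaller changes could not be called.

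Genes that make or handle histones were followed as a list of 53 symbols, of which Ars2 and Zcchc6 are older names of Srrt and Tut7, and 47 of the 51 genes had a probe set that was kept. In CHX against mock 3 were called, all lower, and none higher, against 6.59% of all probe sets called in either direction; the median of the list was -0.29 and that of all probe sets 0.04. A share of 3 in 47 is close to that background. Cyclin E, which with Cdk2 drives histone transcription at the start of S phase, is encoded by Ccne1 (-1.36 ± 0.23, adjusted p = 0.000699) and Ccne2 (-1.86 ± 0.28, adjusted p = 0.000279), and both fell. Chaf1b, a subunit of the factor that deposits H3 and H4 behind the replication fork, fell by 1.50 ± 0.22 on the log2 scale. Fitted on the 6 arrays of the comparison alone, Ccne2 was the one gene of the list still called.

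The factors most particular to canonical mRNA were not called on the probe set tested. Slbp had 3 probe sets kept and Npat, Lsm11 and Hinfp 2 each, and the others are not reported here. Slbp, the stem-loop binding protein, was at -0.20 ± 0.16, Lsm10 at -0.49 ± 0.32 and Lsm11 at 0.02 ± 0.15; the last 2 belong to the U7 particle that cuts the mRNA end. Npat, the coactivator at histone loci, was at -0.27 ± 0.16 and Casp8ap2, its partner, at -0.04 ± 0.23. Hinfp, the H4 promoter factor, was at -1.01 ± 0.29 (adjusted p = 0.0252). By role, 2 of 7 transcription genes, none of 14 end-processing genes, none of 9 decay genes and 1 of 16 chaperones were called.

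**Figure D4:**
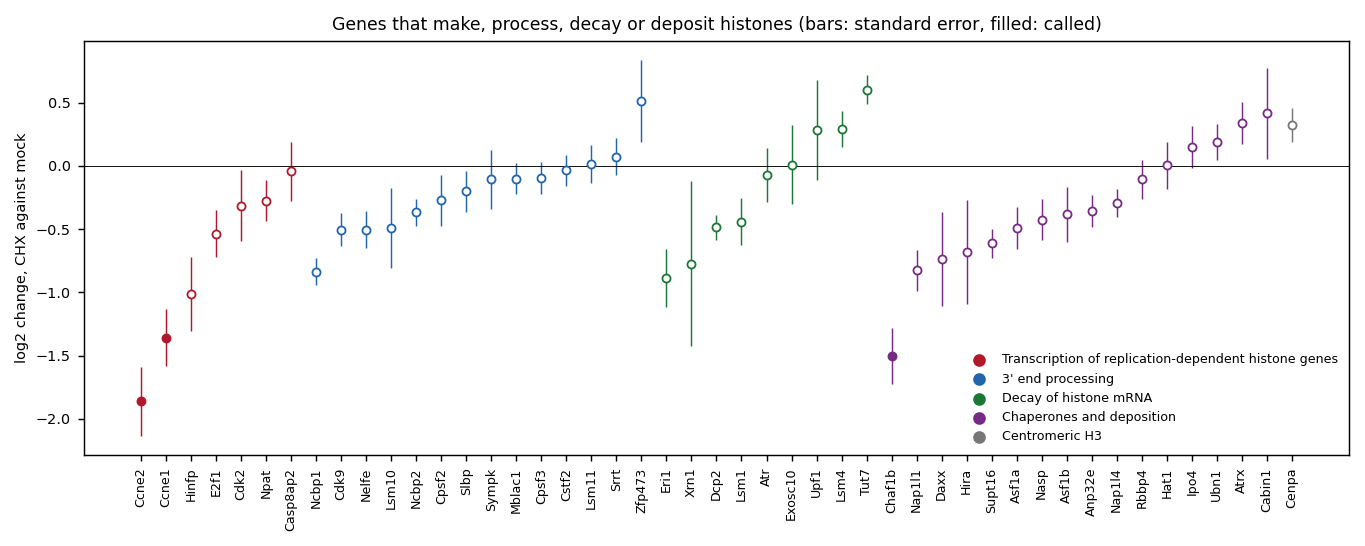
Log2 change in CHX against mock (vertical axis) with its standard error for the 47 genes of the list that were kept (horizontal axis, grouped and coloured by role, ordered by size); filled points were called. The 3 filled points are Ccne2, Ccne1 and Chaf1b, each below 0.

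In the IFNα background 3 of the 47 were called, all lower (background 7.15% in either direction), and in the IFNγ background 7 lower and 1 higher (background 8.40%). In the IFNα background Ccne1 (-1.06 ± 0.23), Ccne2 (-1.70 ± 0.28) and Chaf1b (-1.16 ± 0.22) fell too, as did Ccne1 (-1.28), Ccne2 (-1.78) and Chaf1b (-1.44) in the IFNγ background. In the IFNγ background, 4 further genes fell: Hinfp (-1.19 ± 0.29), E2f1 (-1.02 ± 0.18), Lsm10 (-1.32 ± 0.32) and Nelfe (-1.14 ± 0.15), the last a subunit of the complex that pauses RNA polymerase. Zfp473, the zinc finger protein of the U7 complex, rose there by 2.34 ± 0.33. After quantile normalization these 4 falls were not called, and without the filter Hinfp (adjusted p = 0.0168) and Lsm10 (adjusted p = 0.0158) were not. The difference between the IFNγ background and CHX against mock was tested as an interaction, which called none of the 47 genes.

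Among single-symbol probe sets outside the histones, those most like the canonical profile were ranked by Pearson's r with the median log2 value of the 28 canonical probe sets on each of the 18 arrays, chosen for that likeness and so without a test. They were 1110002E22Rik (r = 0.9928), 4930412F09Rik (r = 0.9895), Ifnz (r = 0.9891), Tnfaip3 (r = 0.987) and Zkscan5 (r = 0.987). Arrays with and without CHX form 2 separate groups here, which sets much of each r. Tnfaip3, an inhibitor of NF-κB signalling, measured 492.6 to 904.2 without CHX and 6705.4 to 10898.7 with it. Ifnz, an interferon gene, measured 13.4 to 41.9 and 2194.1 to 2881.7. The same measure gave 0.970 for H2ax, 0.903 for H3f3b, 0.369 for H3f3a and -0.498 for H2az1 (1438091_a_at).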

How the data were processed

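Per the methods, nascent RNA was separated through its 4sU, labelled with the Affymetrix One-Cycle kit following the protocol for mRNA, and hybridized to MG 430 2.0 arrays. The deposited values are linear intensities. The methods state that the authors used gc-RMA (background correction, normalization and summation per probe set), the submitters' notes name Affymetrix Expression Console, and which of them made the deposited table is not settled. No raw scans were processed here, and arrays have no sequencing depth, so that signal over background and 3 arrays a treatment limit the precision. From the intensities 64 control probe sets were left out, and as many probe sets as the study kept were retained by their highest value on any array (27773 with ties). Gene symbols came from the platform annotation: 34957 probe sets list 1 symbol, 920 several and 9160 none.

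log2 intensities of the 18 arrays entered 1 limma model (limma 3.58.1, R 4.3.3) of 6 treatments without covariates, with 12 residual and 2.05 prior degrees of freedom, and p-values were adjusted over all probe sets kept. The procedure was tested on simulated data with independent noise on each array, which leaves out the correlation between arrays of the same replicate number. The members, the gene lists and the tests were chosen with earlier results of these data known.

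Values on each array are given for the probe set with the largest change and the one with the highest mean in each canonical family, among those with a single symbol where there are any, and for the brightest probe set of each variant gene; 1438009_at and 1418072_at, and other members, were added after their values were seen. Pathway genes are named where called, with Slbp, Npat, Casp8ap2, Lsm10 and Lsm11 in any case. Dcp2, Daxx and Zfp473, called in comparisons of IFN, are given with the closing observations. Alternatives were an added constant of 16, no filter, quantile normalization, median centring, the arrays of a comparison alone, the replicate number as a block, an intensity trend of the prior, single-symbol probe sets and leaving out each array. Where symbols are shared by near-identical genes, a signal cannot be assigned to 1 gene.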

Additional observations from a re-analysis of the deposited data

How the results depend on the processing

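Of 147 alternative values for the 15 counts of calls, 138 stayed within 1.5 times the reported count. Of 78 values for the medians of the classes, 14 moved by more than the spread between replicates, and of 675 for the named probe sets, 29 changed their call. The variant median in the IFNγ background ranged from -0.03 to 0.24 with an array left out. With single-symbol probe sets alone, 11 canonical probe sets were called higher in CHX against mock, in each IFN background and in the average, from 13 instead of 28 kept. With the arrays of the comparison alone, 1 variant was called higher in CHX against mock and 0 in the IFNγ background, and 1 gene of the pathway list was called; over all probe sets that fit called 323 higher and 564 lower in place of 698 and 1131. Leaving out 1 array gave 1 to 2 variants called in CHX against mock (1 without mock replicate 1, CHX replicate 2 or CHX replicate 3) and 1 to 2 in the IFNα background (1 without IFNα replicate 1, IFNα replicate 3 or IFNα+CHX replicate 2), the variant lost being H3f3b each time in these comparisons. No value of a named probe set reversed its sign with a call.

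Same-numbered arrays correlated at r = -0.401 to 0.784 in their deviations from the treatment means, 38 of 45 pairs above 0.1, and 14 of 18 arrays correlated best with their own number. With the replicate block 22 canonical and 2 variant probe sets were called in CHX against mock and in each IFN background, which adds 1438009_at and 1422155_at to the 20 canonical calls of the IFNγ background, and 4 pathway genes in place of 3 in CHX against mock. The canonical median of CHX against mock was 2.93 with the added constant, the setting that moved it most among those tried. Low intensities near the array median carry little information on level.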

Other observations

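The histone pathway list was also followed in the comparisons of IFN with its control. In IFNα against mock 1 of the 47 genes was called (background 0.500%), and in IFNγ against mock 0 (background 1.63%). With CHX on both sides, 2 were called for IFNα (background 0.893%) and 1 for IFNγ (background 3.18%). Dcp2, which removes the cap of mRNAs, rose with IFNα by 1.03 ± 0.10 over mock (adjusted p = 2.24e-05) and by 1.44 ± 0.10 over CHX. Daxx, the chaperone that deposits H3.3 at repeats and telomeres, rose in IFNα+CHX against CHX by 2.79 ± 0.37 (adjusted p = 0.00044). Zfp473 rose in IFNγ+CHX against CHX by 2.18 ± 0.33 (adjusted p = 0.000473). The interactions of IFN with CHX called none of these genes, and the 2 comparisons with CHX share the CHX arrays.

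The probe set of H2aw with Trim17 (1435865_at), outside the rule because of its second symbol, measured 2.2 to 6.3 without CHX and 359.0 to 900.9 with it, a change of 6.88 ± 0.43 over mock. Which of the genes gives the signal cannot be told apart.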
